A study of Mus musculus with 6 samples.

Results

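Replication-dependent histone genes encode the linker histone H1 and the core histones H2A, H2B, H3 and H4, which package newly copied DNA. They were chosen by name from RNA-seq of mouse leukaemic blasts with and without a Stat3β transgene. A gene entered if its gene ID mapped to a protein-coding gene with a symbol of the canonical clusters (H1f1 to H1f5, or H2ac, H2bc, H3c or H4c and a number) or with an older symbol of those clusters (Hist1h to Hist4h). Of the 24454 gene IDs in the deposited table, 67 had such a name. Each gene also had to reach 10 normalized counts in 2 or more of the 6 libraries, and 53 genes did. They comprised 6 H1, 12 H2A, 15 H2B, 10 H3 and 10 H4 genes. Of these, 4 entered by an older symbol only: H4f16 (Hist4h4), H2aw (Hist3h2a), H2bu2 (Hist3h2ba) and H1f6 (Hist1h1t), the last a linker histone known from testis.

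The core histones form the octamer around which DNA is wound, and H1 binds the DNA between octamers. Their replication-dependent genes are switched on in S phase by NPAT, and most of their mRNAs end in a short stem-loop in place of a poly(A) tail. The stem-loop is bound by SLBP and is the site next to which the U7 small nuclear RNP directs cleavage. Several of these genes, among them H1f2 and H2bc4, are also known to give polyadenylated mRNAs in cells that have stopped dividing. The genes lie in dense clusters as near-identical copies, so that reads can fail to be assigned to one copy.

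The blasts came from fetal liver cells of C57BL/6 donors, transformed with an MLL-AF9 retrovirus and grown in NSG mice (NOD.Cg-PrkdcscidIl2rgtm1Wjl/SzJ), which have no mature lymphocytes or NK cells. The donors of the WT group were wild-type littermates, and those of the Stat3β TG group carried Mx1-Cre and a Stat3β transgene, a short splice form of the transcription factor STAT3. The labels give both groups the same protocol, with poly(I:C), which induces Mx1-Cre through interferon, at week 4 after transplantation. Blasts positive for MLL-AF9 were sorted from bone marrow at week 6 and their total RNA was extracted. There were 3 libraries in each group. Separate donors within a group are not stated in the labels, so a p here reflects only the spread among these libraries. Neither poly(A) selection nor rRNA removal is stated. In bulk RNA, fewer cells in S phase and less histone mRNA per cell cannot be told apart.

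The recovered reads were 26805344, 21809788 and 21847953 in WT 1 to 3 and 46579680, 24733256 and 51934498 in Stat3β TG 1 to 3. WT 2 and WT 3 stood apart on the first principal component (47.2% of the variance) at 68.7 and 53.7, against -40.2 in WT 1 and -33.9 to -18.0 in Stat3β TG. The libraries also split by sex-linked genes in another way. The sum over Ddx3y, Eif2s3y, Kdm5d and Uty, which are Y-linked, was 58.8 in WT 1 and 71.8 in WT 3. It lay between 8781 and 11012 in the other 4 libraries, which include all of Stat3β TG. The X-linked Xist was at 42700, 835 and 45196 in WT and at 71.6, 25.9 and 19.1 in Stat3β TG, without overlap. The sex-linked split and the group thus cannot be fully told apart. Stat3 was at 8058, 16112 and 10879 in WT and at 11129, 9846 and 8034 in Stat3β TG, a sum over its splice forms. All 9 markers of leukaemic myeloid blasts passed the threshold, at a summed 84197 to 135807 in WT and 109685 to 138672 in Stat3β TG. Of the other cell types, the 5 markers of eosinophils and basophils summed to 10325 to 43185 in WT and to 6109 to 10818 in Stat3β TG, the 8 of mature neutrophils to 58938 to 194852 and 177367 to 262954, and the 8 of erythroid cells, with Hbb-bt at 0, to 4644 to 5831 and 3772 to 4606, the last without overlap. The markers of monocytes, B cells, T cells (Cd3e at 0), NK cells, megakaryocytes and stroma overlapped between groups. The part of the cell makeup, of the sex-linked split, of the read depth or of the library shape in the histone values was not tested.

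The feature that sets most of these mRNAs apart is printed here for the 7 genes with the smallest p, with H1f2 and H2bc3 for comparison. The 3′ stem-loop was searched in the GENCODE M21 transcripts (GRCm38) as a run of 16 letters (GG, any pair of bases, CTT, any base, T, any base, AG, any pair of bases, CC), and each stretch below holds up to 5 bases on either side. Capitals mark the stem-loop, 5′ to 3′ on the gene's strand.
H2bc6, chr13:23585526-23585551, minus strand: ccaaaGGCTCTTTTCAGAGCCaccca
H4f16, chr6:136803993-136804018, minus strand: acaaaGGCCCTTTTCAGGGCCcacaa
H4c8, chr13:23531453-23531478, plus strand: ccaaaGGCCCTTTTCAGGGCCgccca
H4c9, chr13:22040961-22040986, minus strand: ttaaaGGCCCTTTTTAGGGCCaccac
H1f6, chr13:23696520-23696545, plus strand: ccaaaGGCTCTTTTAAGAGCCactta
H2ac6, chr13:23683472-23683497, minus strand: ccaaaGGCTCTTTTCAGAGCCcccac
H2bc22, chr13:21787918-21787943, plus strand: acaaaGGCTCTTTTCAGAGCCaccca
H1f2, chr13:23739507-23739532, plus strand: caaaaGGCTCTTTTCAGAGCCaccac
H2bc3, chr13:23747198-23747223, plus strand: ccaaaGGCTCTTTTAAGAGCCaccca
The form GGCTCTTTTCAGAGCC was held by 20 of the 53 genes, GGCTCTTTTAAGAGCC by 6 and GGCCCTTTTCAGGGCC by 5, the last all H4 genes. In all, 37 of the 53 genes had the motif in a GENCODE model, against 136 of 21901 protein-coding genes (0.621%).

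Most histone genes had lower mean log values in Stat3β TG than in WT blasts, and no single gene passed the test. The log2 fold change (Stat3β TG over WT, on the log2(normalized count + 1) scale) was below 0 in 46 of 53 genes, where 48.9% of all 13010 genes tested were below 0. The median was -0.48 over the histone genes and 0.01 over all genes tested. After Benjamini-Hochberg adjustment over all genes, limma passed 0 histone genes and 0 genes in all (0.0%), and the smallest adjusted p of a histone gene was 0.664. At an unadjusted limma p under 0.05 there were 7 histone genes, where 6.16% of all genes tested passed. All 7 were lower and 0 higher, where 2.6% of all genes were lower and 3.56% higher at that p. All 3 Stat3β TG libraries lay below all 3 WT libraries in 15 histone genes, where 5.05% of all genes did, and above them in 0, where 5.82% did. On the recovered reads, edgeR passed 0 histone genes (0.0% of all genes), with 6 lower at an unadjusted p under 0.05 (3.81%). There DESeq2 passed 1, H2bc6 (adjusted p = 0.0493), beside 0.238% of all genes, with 6 lower at an unadjusted p under 0.05 (4.4%).

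**Figure D1:**
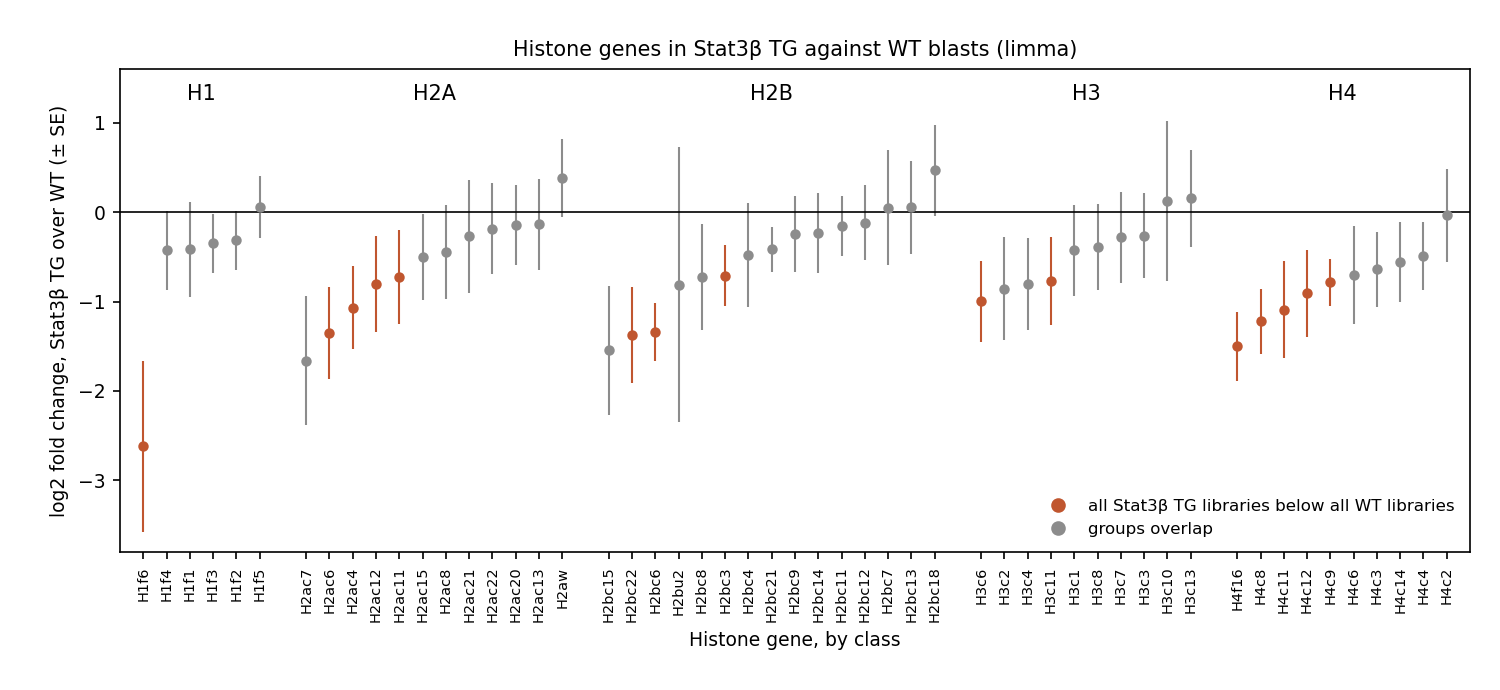
Log2 fold change between the groups (vertical axis, limma estimate on log2(normalized count + 1), bars ± SE) for the 53 histone genes, ordered within each class. Orange points are the 15 genes whose 3 Stat3β TG libraries all lay below the 3 WT libraries, and 46 of the 53 points lie below 0.

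The call of H2bc6 by DESeq2 was borderline, and the counts changed when single libraries were left out. The log2 fold change of H2bc6 stayed between -1.49 and -1.24 over 17 alternatives. Alternatives added after seeing the data gave H2bc6 an adjusted p by DESeq2 of 0.0535 with a filter of 3 libraries, 0.112 without WT 2, 0.135 without WT 3, 0.404 without Stat3β TG 1 and 0.283 without Stat3β TG 2. Without WT 1, DESeq2 passed 3 histone genes (H4c8, H2bc6 and H4f16), but it then passed 2041 of all 13010 genes. Without WT 1 limma had 6 histone genes lower at an unadjusted p under 0.05, where 12.4% of all genes were. The 7 genes of that count became 11 when Stat3β TG 2 was left out (1.45% of all genes), and 4 when either Stat3β TG 1 (1.66%) or Stat3β TG 3 (1.61%) was. The 15 genes without overlap became 23 without WT 2 (7.62% of all genes) and 25 without Stat3β TG 2 (8.77%).

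Within the histone genes, Stat3β TG 3 held the lowest value in 25 and Stat3β TG 1 in 11, and WT 3 held the highest in 29 and WT 1 in 14. Stat3β TG 2 was the lowest in only 2 genes and the highest in 4. WT 2 was the lowest in 10 and the highest in 4. The order of libraries thus differed between genes, and the summed level of all 53 was 8252, 7152 and 6818 normalized counts in WT 1 to 3 and 4550, 8064 and 4306 in Stat3β TG 1 to 3. The groups overlapped in this sum because Stat3β TG 2 lay within the WT range. Stat3β TG 1 and Stat3β TG 3, below that range, were also the libraries with the most recovered reads (46579680 and 51934498). The part of read depth in this order was not tested.

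Histone H4, which pairs with H3 at the core of the octamer, was the class with all its genes below 0. All 10 H4 genes had a log2 fold change below 0 (48.9% of all genes), with a median of -0.75. In 5 the groups did not overlap, where 5.05% of all genes were lower without overlap. The summed H4 level was 850, 891 and 951 in WT as compared with 443, 552 and 544 in Stat3β TG. Every WT library lay above every Stat3β TG library, at 897 ± 50.9 against 513 ± 60.7 (SD, n = 3 each), a ratio of 0.572. Over the alternatives run, the log2 ratio of this sum lay between -0.71 and -0.88.

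H4c9 gave the highest H4 level, also per kilobase of exon (460 normalized counts per kb, mean of 6 libraries). It lies at chr13:22040960-22041362 and had 468, 456 and 345 in WT as compared with 195, 254 and 290 in Stat3β TG. The WT libraries were all higher, and the log2 fold change was -0.78 (SE 0.26, limma unadjusted p = 0.0182, adjusted p = 0.664). H4c8, in the other cluster of the chromosome at chr13:23531044-23531478, had 74.0, 94.8 and 113 in WT as compared with 36.8, 40.6 and 39.9 in Stat3β TG. The Stat3β TG libraries of H4c8 were close together and below the lowest WT library, with a log2 fold change of -1.22.

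H4f16 is a single H4 gene outside the main clusters, at chr6:136803993-136804431. It had 59.9, 67.7 and 69.0 in WT as compared with 20.1, 23.4 and 24.2 in Stat3β TG, from 19 to 55 reads per library. The groups were far apart relative to their spread, with a ratio of 0.344 and a log2 fold change of -1.50 (SE 0.38, limma adjusted p = 0.664). H4c11 (18.5, 23.0 and 36.6 against 14.1, 13.5 and 7.30) and H4c12 (23.9, 25.7 and 19.7 against 10.04, 11.1 and 14.6) also did not overlap. In H4c4, second in normalized counts, the groups overlapped at 86, 106 and 160 in WT as compared with 68.9, 103 and 73.0 in Stat3β TG. H4c2 had the smallest difference of the class, at 19.6, 17.6 and 42.2 against 18.1, 28.3 and 26.4, a log2 fold change of -0.04.

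**Figure D2:**
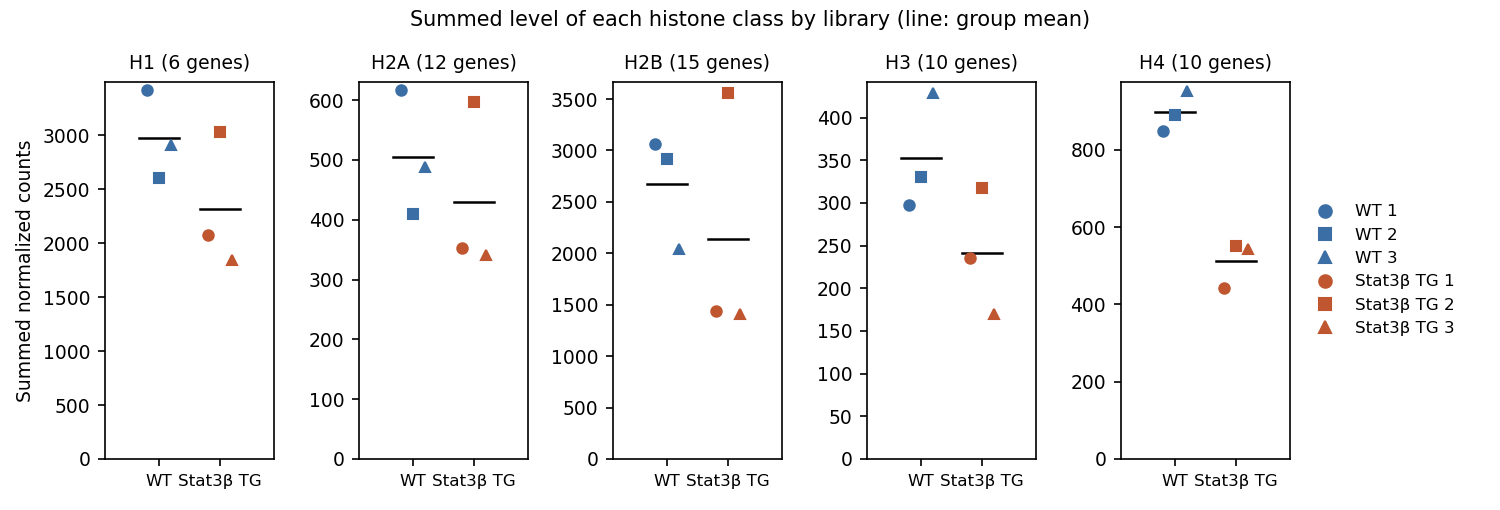
Summed normalized counts per library (vertical axes, each from 0) of the genes of each histone class, WT in blue and Stat3β TG in orange, with lines at the group means. The groups are apart in H4 and overlap in H1, H2A, H2B and H3, where Stat3β TG 2 (square) lies at or above the lowest WT library.

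H2B, which pairs with H2A, held the gene with the smallest p of all 53. H2bc6 had 174, 146 and 151 in WT as compared with 54.9, 56.6 and 74.2 in Stat3β TG. The highest Stat3β TG library stood near the middle between 0 and the lowest WT library, the ratio of the means was 0.394, and the log2 fold change was -1.34 (SE 0.32, limma unadjusted p = 0.0033, adjusted p = 0.664). RefSeq gives H2bc6 a long span, chr13:23583670-23621124, with more than 1 start. H2bc22, at 50.1, 92.1 and 32.4 in WT as compared with 13.4, 25.9 and 22.5 in Stat3β TG, and H2bc3, at 177, 161 and 158 against 90.4, 144 and 78.1, were also lower in each Stat3β TG library than in each WT library. WT 2 was the highest library in H2bc22 and Stat3β TG 2 the highest of its group in both genes.

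The 12 H2B genes below 0 and the 3 above gave a median of -0.41. It was -0.24 by edgeR, -0.25 by DESeq2, -0.22 without WT 1 and -0.09 without Stat3β TG 3. The largest part of the H2B sum came from H2bc4, one of the genes also known from polyadenylated mRNAs, at 1412, 1551 and 868 in WT as compared with 568, 2479 and 499 in Stat3β TG. Stat3β TG 2 alone was above every WT library, and the other Stat3β TG libraries were below them. The summed H2B level was 3067, 2919 and 2039 in WT as compared with 1440, 3562 and 1409 in Stat3β TG, overlapping through that library. With H2bc4 taken out after its values were seen, the other 14 genes summed to 1655, 1367 and 1171 against 871, 1084 and 909.6, and did not overlap. H2bc21, second in normalized counts, was at 607, 430 and 387 against 305, 361 and 389, where WT 3 lay just below Stat3β TG 3.

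Most H2A genes had few counts, and 11 of 12 had a log2 fold change below 0 (median -0.48). In 4 the groups did not overlap (5.05% of all genes were lower without overlap). The median was -0.25 without Stat3β TG 3 and -0.75 without WT 2. H2ac6 had 53.3, 52.8 and 56.3 in WT as compared with 14.1, 40.6 and 15.2 in Stat3β TG. The WT values were within 4 normalized counts of each other, while Stat3β TG 2 stood above the other libraries of its group. The log2 fold change was -1.35 (SE 0.52, limma unadjusted p = 0.0311, adjusted p = 0.664). H2ac4, at 31.6, 25.7 and 29.6 against 12.7, 11.1 and 16.3, H2ac12, at 20.7, 12.2 and 15.5 against 7.36, 8.62 and 10.1, and H2ac11, at 21.8, 16.2 and 23.9 against 13.4, 16 and 7.87, also did not overlap, the last by a narrow margin.

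H2aw, the H2A gene with the most normalized counts, ran the other way at 264, 138 and 110 in WT as compared with 152, 320 and 181 in Stat3β TG. Its groups overlapped, and its log2 fold change of 0.38 turned to -0.35 without WT 2 and WT 3. H2ac15, second in normalized counts, was at 49.0, 32.5 and 56.3 against 32.1, 46.8 and 20.2, with WT and Stat3β TG libraries interleaved. The H2A sum was 617, 410 and 488 in WT as compared with 352, 597 and 341 in Stat3β TG. Against WT 2 alone its log2 ratio turned from -0.26 to 0.02.

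H3, which carries many of the known regulatory tail marks, had 8 of 10 genes below 0 (median -0.41) and none at an unadjusted p under 0.05. The median depended on single libraries, at -0.12 without WT 3, -0.27 without Stat3β TG 3, -0.62 when WT 1 was left out and -0.64 when Stat3β TG 2 was. H3c6 (35.9, 29.8 and 47.8 in WT, 19.4, 20.9 and 14.6 in Stat3β TG) and H3c11 (26.1, 25.7 and 45 in WT, 18.7, 23.4 and 12.9 in Stat3β TG) were the 2 genes without overlap. Of all genes, 5.05% were lower without overlap. H3c6 had a log2 fold change of -0.997 (SE 0.45, limma adjusted p = 0.664). The H3 genes with the most normalized counts, H3c4 (67.5, 86.6 and 38.0 against 32.1, 56.6 and 21.9) and H3c1 (31.6, 65.0 and 66.1 against 38.1, 59.1 and 24.2), overlapped between groups. The H3 sum was 297, 330 and 429 in WT as compared with 236, 318 and 170 in Stat3β TG, with Stat3β TG 2 above WT 1.

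In the linker histone genes the groups overlapped in 5 of 6, and WT 3 was the highest library in 5 of 6. Of the 6, 5 had a log2 fold change below 0, with a median of -0.38. That median rested on single libraries: it was -0.0064 with WT 3 left out, -0.20 with Stat3β TG 3 left out and -0.57 with WT 1 left out. H1f2 made up the largest part of the H1 sum and was the highest histone gene per kilobase of exon (1108 per kb, against 1064 for H2bc4), at 2677, 1867 and 1233 in WT as compared with 1218, 2151 and 1222 in Stat3β TG. The lowest WT library was level with the lowest Stat3β TG libraries. H1f1 (121, 185 and 481 in WT) and H1f4 (152, 179 and 456 in WT) were highest in WT 3, and so were H1f3 and H1f5. In Stat3β TG, H1f1 was at 153, 245 and 121 and H1f4 at 198, 166 and 154, within the WT range or level with its lower end. H1f3, second in normalized counts, was at 239, 198 and 388 against 230, 227 and 171, a log2 fold change of -0.35 that turned to 0.07 against WT 2 alone.

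The linker gene without overlap was H1f6, the testis form, at low counts. It had 28.3, 17.6 and 35.2 in WT as compared with 6.02, 11.1 and 0 in Stat3β TG, where the 0 of Stat3β TG 3 allows up to 3 reads, or 1.69 normalized counts, for counting error alone. All WT libraries were above all Stat3β TG libraries, from 13 to 26 reads against 9, 9 and 0. Its log2 fold change was -2.62 (SE 0.96, limma unadjusted p = 0.0261, adjusted p = 0.664), while the ratio of the means was 0.211.

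**Figure D3:**
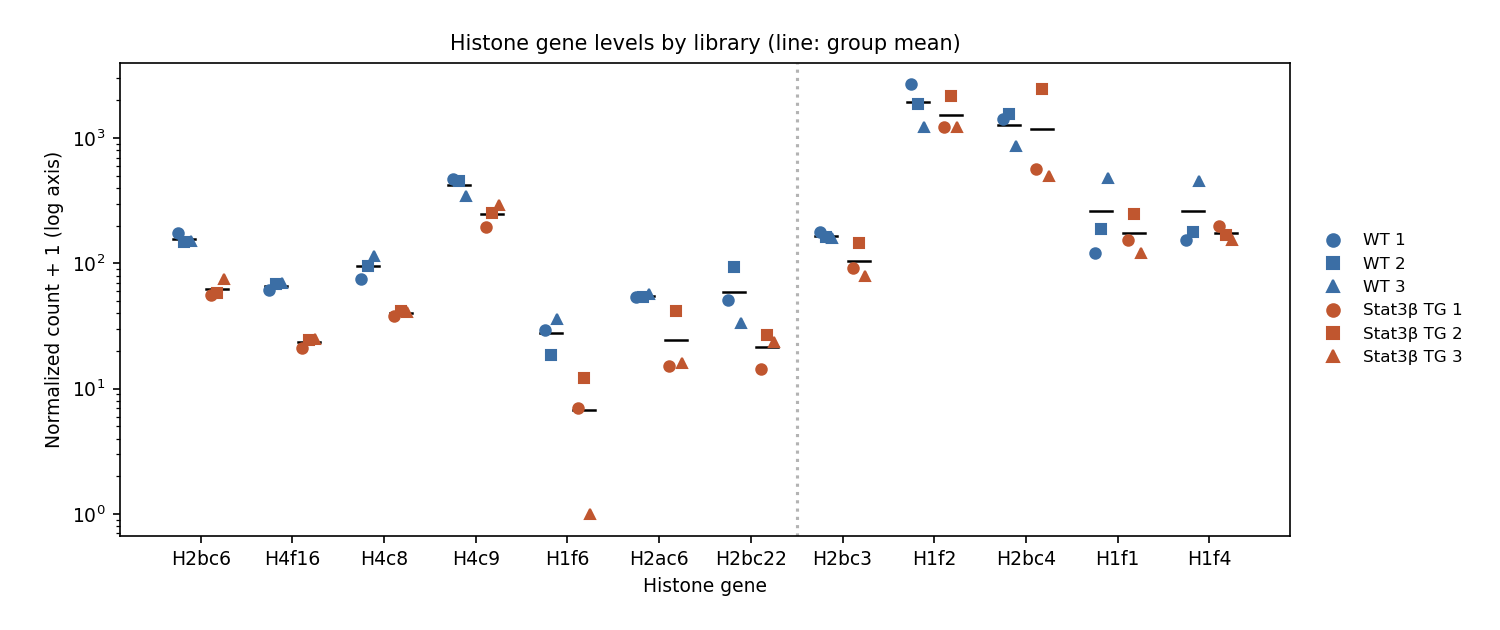
Normalized count + 1 per library (vertical log axis) of 12 histone genes, WT in blue and Stat3β TG in orange, with lines at the group means. Left of the dotted line are the 7 genes with an unadjusted limma p under 0.05, where the groups do not overlap; right of it are H2bc3, also without overlap, and H1f2, H2bc4, H1f1 and H1f4, in which 1 library of a group stands far from the rest.

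Genes of both clusters on chromosome 13 were mostly below 0. Of the 53 genes, 44 lie on chromosome 13, 6 on chromosome 3, 2 on chromosome 11 and 1 on chromosome 6. On chromosome 13, 17 genes lie in the cluster that holds H4c9, H2bc22 and H1f5, of which 14 were below 0 (median -0.50), and 27 in the cluster that holds H2bc6, H4c8 and H1f2, of which 26 were below 0 (median -0.49). On chromosome 3, 4 of 6 were below 0 (median -0.21). Neighbours share near-identical sequence, so their values are not independent.

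Many H2A and H2B genes lie head to head and share the stretch between their starts. There were 9 such pairs with starts within 500 bases, and in 7 both genes had a log2 fold change below 0. All 9 H2A genes of these pairs were below 0, and 7 of the 9 H2B genes. The size was often unequal within a pair. H2ac6 and H2bc4, 240 bases apart, had -1.35 and -0.48, though H2bc4 was at -0.12 by edgeR and by DESeq2 and ran from -1.22 without Stat3β TG 2 to -0.06 without Stat3β TG 3. H2ac7 and H2bc7, 174 bases apart, had -1.66 and 0.05, and H2ac22 and H2bc22, also 240 bases apart, -0.19 and -1.38.

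Genes known from polyadenylated mRNAs of non-dividing cells were compared with the rest. The 6 such genes measured (H1f2, H2ac6, H2bc4, H2bc21, H2bc12 and H2aw) summed to 5061, 4080 and 2700 in WT as compared with 2309, 5398 and 2335 in Stat3β TG. Their groups overlapped, as Stat3β TG 2 was the highest library of all. The other 47 genes summed to 3191, 3072 and 4117 in WT as compared with 2241, 2666 and 1971 in Stat3β TG. Here every WT library was above every Stat3β TG library, with a ratio of 0.663. By gene the sets differed less: 5 of the 6 were below 0 (median -0.36) and 41 of the 47 (median -0.50). Most of the sum of the 6 in Stat3β TG 2 came from H2bc4 (2479) and H1f2 (2151). The 6 genes made up between 39.6% of the summed histone level in WT 3 and 66.9% in Stat3β TG 2, so the makeup of the summed level differed between libraries of a group.

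The length of the annotated 3′ end gave a further split. The 37 genes with the stem-loop in a GENCODE model included 35 with a log2 fold change below 0 (median -0.64) and all 7 with an unadjusted p under 0.05. The other 16 included 11 below 0 (median -0.34). Several of their models are short (312 bases in H4c12 and 381 in H2bc13), so the motif can be missing from the model and not from the mRNA. Among the 37, the model ran on for more than 100 bases past the stem-loop in 20 genes, of which 19 were below 0 (median -0.68), and ended within 100 bases in 17, of which 16 were below 0 (median -0.43). H4f16 runs on for 2445 bases past its stem-loop, H2ac6 for 2010 and H2bc6 for 1861. The annotation behind the deposited counts is not given in the sources used here, so whether reads past the stem-loop were counted is not known.

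Other RNAs that lack a poly(A) tail were set beside the histone genes. Of 74 tested, which were mainly small nucleolar RNAs, 46 were below 0 and 28 above, with a median of -0.14, and 2 were lower at an unadjusted limma p under 0.05, a share close to the 2.6% of all genes. The groups did not overlap in 4 that were lower and 2 that were higher (5.05% and 5.82% of all genes). Malat1, a nuclear RNA whose end is made by RNase P, was one of the 2 lower at that p, at 25904, 26524 and 43000 in WT as compared with 15237, 13119 and 8721 in Stat3β TG. It was lower in every Stat3β TG library, with a log2 fold change of -1.36 (limma adjusted p = 0.664). The other was the small nucleolar RNA Snord47, at 125, 161 and 259 against 101, 98.5 and 92.7. Snora31 had 248, 353 and 328 against 206, 240 and 125. The 2 higher RNAs, at low counts, were Snord45b (15.2, 6.77 and 8.44 against 22.1, 22.2 and 17.4) and Snord88c (4.35, 6.77 and 8.44 against 12.7, 12.3 and 10.7). On the recovered reads, edgeR had 3 of the 74 lower at an unadjusted p under 0.05 (3.81% of all genes). There DESeq2 had 6 (4.4% of all genes), and 0 were higher at that p by either. After adjustment edgeR passed 0 of the 74 and DESeq2 passed 1 (0.238% of all genes). The part of the capture of RNA without a poly(A) tail in the histone values was not tested.

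The genes that make and process histone mRNA were split evenly. Of 24 such factors, 12 were below 0 and 12 above, with a median of 0.00, and the groups did not overlap in 2 that were lower and 2 that were higher, where 5.05% and 5.82% of all genes did not. Slbp, the stem-loop binding protein, was at 4043, 2535 and 3148 in WT as compared with 3569, 3661 and 4034 in Stat3β TG, and Npat at 1356, 1623 and 1694 against 1503, 1322 and 1334. Both overlapped between groups. Pou2f1, which encodes the octamer-binding factor OCT1 that acts on H2B promoters, was the 1 factor at an unadjusted limma p under 0.05 (2.6% of all genes were lower at that p), at 1153, 1462 and 1320 in WT as compared with 1025, 755 and 884 in Stat3β TG (log2 fold change -0.57, adjusted p = 0.664). Coil, which encodes the Cajal body protein coilin, was at 693, 759 and 795 against 492, 559 and 635, also without overlap. Cstf2, a subunit of the cleavage machinery, was at 3066, 4517 and 4240 against 3284, 2860 and 3019, with overlap. The 2 higher factors were Zfp473, which encodes a U7-associated zinc finger protein, at 86, 79.9 and 80.2 against 105, 109.6 and 153, and Srrt, at 10904, 10421 and 10869 against 11498, 11885 and 12730.

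S phase genes lay on both sides of 0. Of 40, 16 were below 0 and 24 above, with a median of 0.06, and Pole, the catalytic subunit of the leading-strand polymerase, was the only one at an unadjusted limma p under 0.05, a share close to the 2.6% of all genes. The groups did not overlap in 2 that were lower, also near the share of all genes (5.05%), and in 0 that were higher. Pole had 3618, 4191 and 4760 in WT as compared with 3344, 3034 and 2690 in Stat3β TG, lower in each Stat3β TG library. Ccna2, the S phase cyclin, was at 7874, 6985 and 6932 against 5493, 5679 and 6680 without overlap. Tk1, the thymidine kinase, was at 2607, 2437 and 4238 against 1984, 2167 and 2561, with Stat3β TG 3 above WT 2. The genes above 0 with the smallest p were Slbp, with a log2 fold change of 0.24, and Cdc45, a subunit of the replicative helicase, at 4210, 2755 and 3756 against 4085, 4131 and 3920, both with overlap.

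Replication-independent histone variants are made also outside S phase, mostly from polyadenylated mRNAs. Of 11 tested, 10 were below 0 and 1 above, with a median of -0.30. H1f0, the linker histone of differentiated cells, was the 1 at an unadjusted limma p under 0.05 (2.6% of all genes), at 7667, 5955 and 10756 in WT as compared with 4756, 5223 and 3781 in Stat3β TG, with all WT libraries higher. H3f3b, which encodes the variant H3.3, was at 20018, 20327 and 20352 in WT as compared with 13511, 20651 and 13786 in Stat3β TG. Stat3β TG 2 was above every WT library, as in H2bc4. The centromeric variant gene Cenpa was at 4306, 3781 and 3452 against 2577, 3569 and 3248.

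Histone chaperones carry new histones to DNA. Of 25, 17 were below 0 and 8 above, with a median of -0.14. Mms22l, which acts with TONSL at stalled forks, was at 2292, 2613 and 2696 in WT as compared with 1778, 2050 and 2035 in Stat3β TG, the 1 gene at an unadjusted limma p under 0.05, where 2.6% of all genes were lower at that p. The groups did not overlap in 3 that were lower (Mms22l, Rbbp7 and Supt16) and 1 that was higher (5.05% and 5.82% of all genes). Rbbp7, a histone-binding subunit of several complexes, was at 6013, 6311 and 7583 against 5174, 5451 and 5929. Nap1l4, the higher one, was at 5784, 5053 and 5637 against 6319, 6042 and 5840. Hira, the chaperone of H3.3, was at 2571, 4428 and 4427 against 3080, 2793 and 2484, with WT 1 among the Stat3β TG libraries. No gene of any of these lists passed the adjusted threshold with limma or edgeR. With DESeq2, 1 of the RNAs without a poly(A) tail passed it, and no gene of the other lists did.

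**Figure D4:**
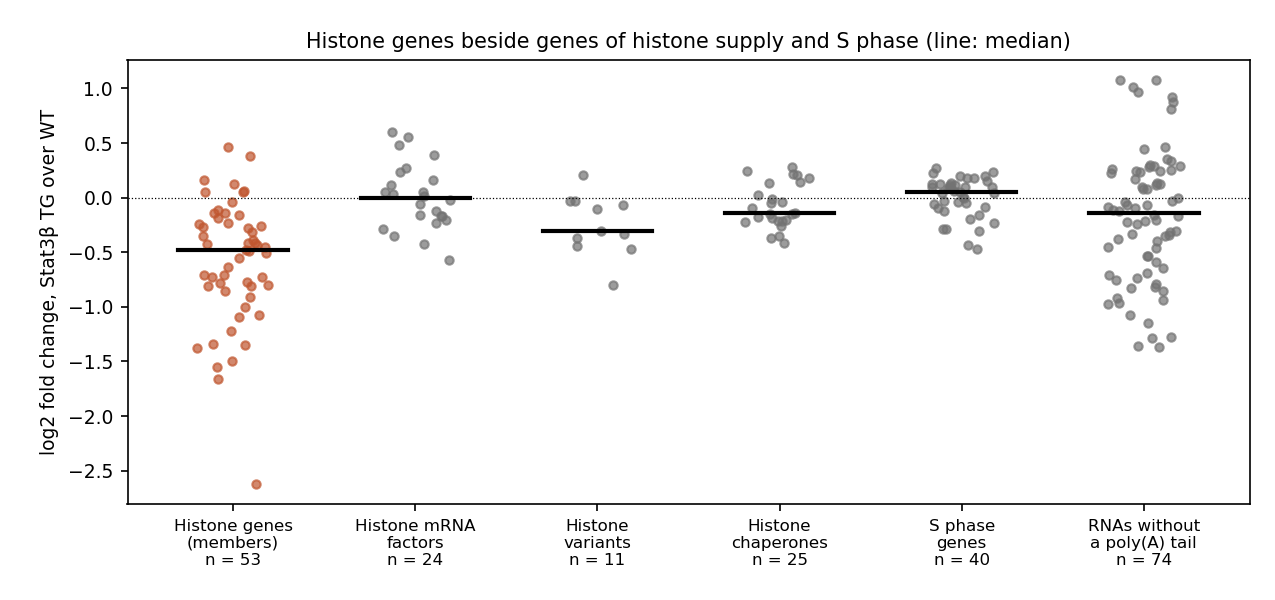
Log2 fold change between the groups (vertical axis, limma estimate) of each tested gene in the histone set and in 5 other gene lists, with a line at each median. The histone genes have a median of -0.48, and the medians of the other lists lie between -0.30 (histone variants) and 0.06 (S phase genes).

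The promoters of the histone classes differed in the short motifs they held. RefSeq promoter windows (GRCm38.p6, 250 bases before to 50 after the start) were found for 48 of the 53 genes, and motifs were matched on both strands. The stretch of 170 bases before the start is printed for the 3 H4 genes and the H2B gene with the smallest p, 5′ to 3′ on the gene's strand. Capitals mark CCAAT, ATTTGCAT (the octamer), GGTCC (part of an H4 promoter element) and TTCNNNGAA (the core of a STAT site), each on either strand. For H2bc6, which has more than 1 start in the table, the start next to the coding sequence is shown.
H4f16, chr6:136804432-136804601, minus strand: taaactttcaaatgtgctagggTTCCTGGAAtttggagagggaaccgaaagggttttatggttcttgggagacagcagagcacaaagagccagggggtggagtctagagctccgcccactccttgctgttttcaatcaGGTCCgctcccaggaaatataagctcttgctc
H4c8, chr13:23530874-23531043, plus strand: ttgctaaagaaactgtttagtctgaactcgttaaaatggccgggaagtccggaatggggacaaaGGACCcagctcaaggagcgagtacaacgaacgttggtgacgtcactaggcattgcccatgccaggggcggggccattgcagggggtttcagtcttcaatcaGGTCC
H4c9, chr13:22041363-22041532, minus strand: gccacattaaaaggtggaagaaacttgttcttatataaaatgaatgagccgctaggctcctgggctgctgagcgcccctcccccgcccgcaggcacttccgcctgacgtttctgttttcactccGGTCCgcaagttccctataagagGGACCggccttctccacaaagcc
H2bc6, chr13:23585971-23586140, minus strand: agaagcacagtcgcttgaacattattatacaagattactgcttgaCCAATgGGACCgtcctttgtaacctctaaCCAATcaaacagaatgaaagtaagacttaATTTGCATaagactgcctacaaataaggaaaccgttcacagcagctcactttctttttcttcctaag
GGTCC stood in 9 of 9 H4 windows, against 48.7% of the 27025 genes with a window. CCAAT stood in every H1, H2A, H2B and H3 window and in 2 of 9 H4 windows, against 41.1% of all genes. The octamer stood in 6 of 13 H2B and 6 of 12 H2A windows, which overlap in head-to-head pairs, in 0 of the H1, H3 and H4 windows, and in 1.97% of all genes. TATAAA, not marked in the sequences, stood in 60.4% of the histone windows and 15.7% of all. TTCNNNGAA stood in 2 of 48 histone windows, those of H4f16 and H1f4, against 9.55% of all genes. A match describes these letters and does not show binding.

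How well reads can be assigned to one copy differed between the genes. In the GENCODE transcripts, the share of 50-base windows of a gene found in no other gene had a median of 53.0% over the 53 genes, and it was 0 for H2bc18 and H3c13. In the 30 genes with at least 50% of such windows, 28 were below 0 (median -0.52), and these held all 7 genes with an unadjusted p under 0.05. In the 23 genes with less, 18 were below 0 (median -0.27). They hold all genes without a stem-loop in a model except H1f1, H1f5, H2bc4 and H2bc21, so this split overlaps with the one by stem-loop. The share of windows found in no other gene was 91.5% for H4f16, 83.7% for H2bc6, 71.1% for H4c9 and 54.2% for H4c8.

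The other 14 of the 67 genes lay under the threshold, and 11 of these were listed at 0 in all 6 libraries: H2ac1, H2ac18, H2ac19, H2ac23, H2ac24, H2bc1, H2bc23, H4bc24 (Hist1h2br, an H2B gene), H3c14, H3c15 and H4c17. Of the 11, 6 had under 10% of windows found in no other gene, and the median was 6.93%. H2ac1 and H2bc1, which are known from testis, had 76.2% and 61.8%. Just outside the threshold were H2ac10, at 15.5 in WT 3 and at most 5.41 elsewhere, and H4c1, at 10.9 in WT 1 and at most 9.85 elsewhere, while H4c18 reached at most 5.63. Just inside was H3c10, at 14.1 in WT 3 and 11.1 in Stat3β TG 2. No gene entered through 1 group alone, and 42 of the 53 had at least 10 in all 6 libraries.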

How the data were processed

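RNA-seq was compared between 3 WT and 3 Stat3β TG libraries, with groups from the titles. The submitters' processing notes name STAR, FastQC and DESeq2 and the build GRCm38 (mm10). For tool versions, counter, strand, annotation and library selection, the entry is: not given in the sources used here. Normalized counts, a signal per Entrez gene ID, were deposited by the authors. Each library's values were whole multiples of 1 step, within 0.001 for 100% of 146724 values, so whole reads were recovered, and 3 reads equalled 1.69 to 4.22 normalized counts. Symbols and gene coordinates came from RefSeq (GRCm38.p6), which named 24376 of 24454 IDs.

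Genes reaching 10 in 2 or more libraries (13010) were tested on log2(value + 1) with limma 3.58.1 (mean-variance trend, robust, two-sided, group as the only term) in R 4.3.3, with Benjamini-Hochberg adjustment over all of them called below 0.05. As alternatives, edgeR 4.0.16 and DESeq2 1.42.0 were run on the recovered reads. The tests were tried on simulated counts. Sums and medians over genes are descriptions without a test. Levels per kilobase divide by GENCODE exon length. The histone genes, lists and alternatives were chosen with earlier results of these data known. Genes named with values were the 2 highest per class, those at an unadjusted p under 0.05 or without overlap, and in each list the 3 with the smallest p, with Slbp and Npat. H1f1, H1f4, H1f5, H2ac7, H2bc7, H2ac22, H4c2, Zfp473, Srrt, Cdc45, Nap1l4, Supt16, Snord45b, Snord88c, H2bc18 and H3c13 were named after their values were seen. Of the list entries, H3f5, Rn7sk, Rny1 and Rny3 had no match.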

Additional observations from a re-analysis of the deposited data

How the results depend on the processing

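The direction over the histone genes held under all alternatives run: the median log2 fold change lay between -0.30 (against WT 2 alone) and -0.67 (without Stat3β TG 2), and genes below 0 numbered 35 (against WT 2 alone) to 51 (without WT 2). Limma and edgeR passed 0 histone genes in each, and DESeq2 passed 1. With DESeq2, 0 passed with a filter of 3 libraries and 0 to 3 with 1 library left out, chosen after seeing the data. Genes lower at an unadjusted p under 0.05, 7 as reported, numbered 4 to 11 with 1 library left out (1.17% to 12.4% of all genes). Genes without overlap, 15 lower and 0 higher, numbered 16 to 25 lower and 0 to 2 higher with 1 library left out, where fewer samples separate more easily (7.62% to 22.6% of all genes lower). They numbered 30 and 2 without WT 2 and WT 3 (21.7% and 22.9% of all genes), and 25 and 11 against WT 2 alone (35.1% and 36.4%). The H2A median was -0.87 without WT 2 and WT 3 and -0.10 against WT 2 alone, where the log2 ratio of the H2A sum was 0.0184. Single genes that reversed were H2aw (-0.35) and H3c1 (0.26) without WT 2 and WT 3, and H1f3 (0.0672) against WT 2 alone. The cause was not tested.

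The replicate numbers did not pair the libraries: deviations of same-numbered libraries correlated at 0.14, 0.09 and -0.10. With the replicate block, 8 histone genes were lower at an unadjusted p under 0.05 (2.68% of all genes) and 0 passed the adjusted threshold. Many histone genes had under 100 reads per library, which limits what can be seen.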
